A study of Mus musculus with 23 samples.

Results

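Upf1 is an RNA helicase required for nonsense-mediated mRNA decay, the pathway that degrades messages whose translation ends too early. It is known to bind RNA with little sequence preference and to be found in cells mainly on 3′ untranslated regions, since translating ribosomes displace it from coding sequence. Cycloheximide blocks translation elongation and thereby halts nonsense-mediated decay. The regions described here were occupied in Upf1 crosslinking and immunoprecipitation (CLIP) libraries from untreated mouse embryonic stem cells and held no unspliced alignment in the Upf1 libraries from cycloheximide-treated cells. There were 824 of them, out of 203521 regions in all.

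The libraries came from v6.5 mouse embryonic stem cells, a cell line that had been grown on feeder fibroblasts. Per the labels, pre-plating took the feeders away before the cells were irradiated at 254 nm with 400 mJ/cm2. Treated cells had cycloheximide at 100 µg/ml for 2 hours and gave 2 libraries with a rabbit antibody against Upf1 (A1 and A2) and 2 with control rabbit IgG (A1 and A2). Untreated cells gave 3 libraries with each antibody (A1, A2 and I). Nothing in the labels tells whether the libraries of a group came from separate cultures. The p-values therefore cover only the variation among these libraries, which may be technical.

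Each line of the data is an alignment, and each distinct alignment was counted once per library. Alignments that spanned at most 60 nt were taken as unspliced, and alignments of the 10 libraries were pooled into regions, each strand by itself, wherever the gap between them was 50 nt or less. A region was chosen if at least 2 of the 3 untreated Upf1 libraries held it, if it had 8 or more alignments over those 3, and if both cycloheximide Upf1 libraries had 0. Regions on the mitochondrial chromosome and on the contig chrRibo were left out of the choice. They stayed in the 203521 regions, of which 203383 lay elsewhere, in the fits and in the totals behind the rates. Of 1761 regions that met the untreated demands, 824 (46.8%) were absent under cycloheximide and the other 937 were present. The counts in the 5 Upf1 libraries chose the regions, so those counts, and how they differ from IgG in untreated cells, are given as a description, with no test. Coordinates are 1-based on mouse build mm9. Regions are named by position and not by gene, since no mm9 annotation was used here, and markers of stem cells and of feeder fibroblasts could not be looked up.

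The depth of the cycloheximide libraries set a limit on what 0 means. The Upf1 libraries held 30186 (A1) and 32747 (A2) unspliced alignments with cycloheximide, together 62933. Without it they held 96521 (A1), 20209 (A2) and 88403 (I), together 205133. At equal rates, 8 untreated alignments come to 2.45 alignments at the cycloheximide depth, 10 come to 3.07, 20 to 6.14 and 40 to 12.3. Of the 824 regions, 510 had 10 or more untreated alignments, 97 had 20 or more and 10 had 40 or more. A count of 0 allows up to 3 alignments over both cycloheximide libraries, for counting error only. Since the regions were picked for their 0 out of 1761, that floor gives no bound on the fold of a picked region. How many of the zeros an equal rate would give was not tested.

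The libraries also differed in read length and in shared molecules. The longest reads were 34 nt in Upf1 untreated A1 and I and in IgG untreated I, and 38 nt in all other libraries. Alignments shorter than 30 nt made up 50.4% and 52.3% of Upf1 cycloheximide A1 and A2, against 15.1%, 31.4% and 12.2% of Upf1 untreated A1, A2 and I. A molecule is an alignment with the 2 random letters of its adapter. Of all unspliced molecules in IgG cycloheximide A2, 30.4% were also present in Upf1 cycloheximide A1, 35.8% in Upf1 cycloheximide A2 and 21.5% in Upf1 untreated A2. With alignments of 30 nt or longer alone, 854 of 1409 regions that met the untreated demands were absent, against 824 of 1761 with all alignments. Without molecules found in several libraries these were 984 of 1671. The absent share was thus higher in both settings. The 30 nt limit removed a larger part of the cycloheximide than of the untreated Upf1 alignments. The part of read length in the results was not tested.

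The regions with most untreated alignments were long tracts. The first, on chromosome 10 (21718652 to 21719612, plus strand, 961 nt), held 0 alignments in both Upf1 cycloheximide libraries, against 37, 5 and 39 in Upf1 untreated A1, A2 and I. With IgG it held 0 (A1) and 3 (A2) under cycloheximide, against 0, 3 and 19 in IgG untreated A1, A2 and I. Its alignments lay spread over 70 distinct 5′ ends, and at most 14 covered any 1 base. In Upf1 each untreated library was above both cycloheximide libraries, as the choice demanded of at least 2 of them, while the IgG groups overlapped.

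The next, on chromosome 7 (133635303 to 133636258, minus strand, 956 nt), held 0 in both Upf1 cycloheximide libraries, against 55, 4 and 11 in Upf1 untreated A1, A2 and I. With IgG it held 0 and 2 with cycloheximide, against 2, 1 and 9 without. It began 241 nt on the 3′ side of a spliced span, which is a stretch bridged by spliced alignments and so marks an intron of a processed transcript. Most of its untreated alignments came from library A1.

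A region on chromosome 3 (95465825 to 95466801, plus strand) was the widest, at 977 nt. It held 0 with cycloheximide, against 21, 0 and 36 in Upf1 untreated A1, A2 and I. IgG gave 0 in both cycloheximide libraries, against 0, 0 and 20 in IgG untreated A1, A2 and I. With both antibodies it was thus absent from untreated A2, and with IgG it came from library I alone.

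**Figure D1:**
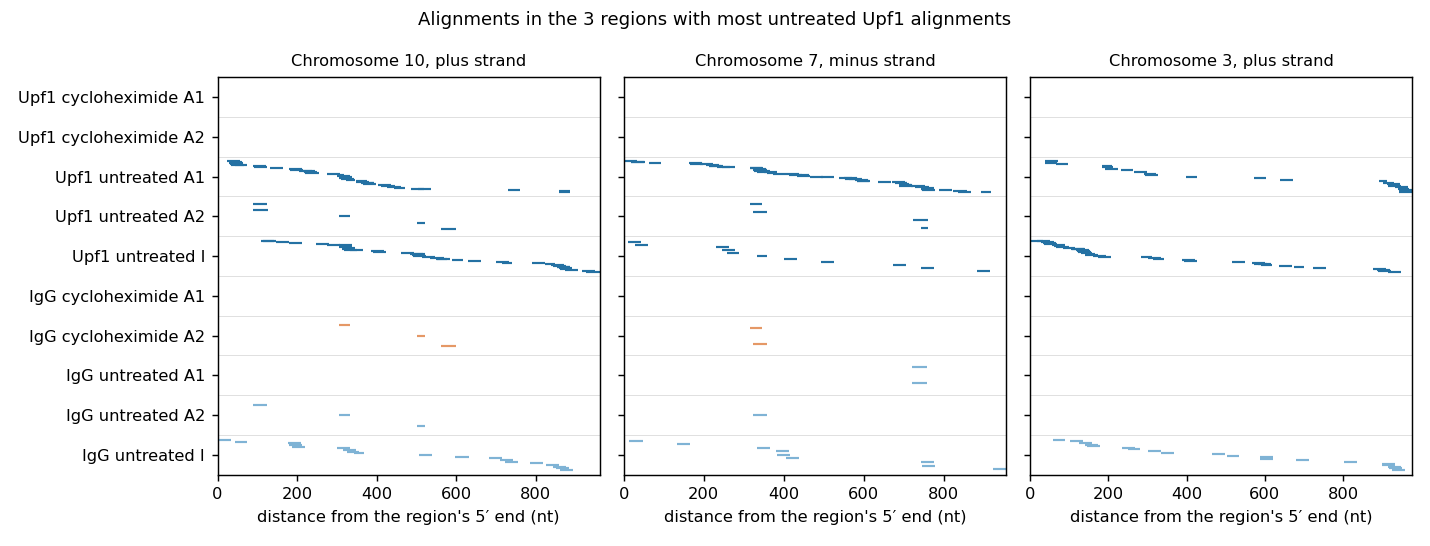
Each bar is 1 distinct alignment in the 3 regions with most untreated Upf1 alignments, placed by its distance in nt from the 5′ end of the region; rows are libraries. The Upf1 cycloheximide rows are empty by the choice of the regions, the untreated Upf1 alignments run along the whole width, and IgG untreated I holds 19, 9 and 20 alignments in the regions on chromosomes 10, 7 and 3.

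Regions of the same kind followed on chromosome 11. The minus-strand tract from 120668396 to 120669116 had 0 with cycloheximide, against 37, 4 and 9 in Upf1 untreated A1, A2 and I. The minus-strand tract from 50108382 to 50109172 had 0, against 20, 1 and 21. The first of these lay 171 nt and the second 640 nt on the 3′ side of a spliced span. In IgG untreated I they held 6 and 16 alignments, and in IgG cycloheximide A2 they held 1 each. Chromosome 11 gave 5 of the 15 regions with most alignments.

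Chromosome 15 carried a plus-strand region (99543128 to 99543822) with 0 alignments with cycloheximide, against 38, 1 and 10 in Upf1 untreated A1, A2 and I. Chromosome 4 carried a minus-strand one (41061488 to 41062420) with 0, against 33, 3 and 13. In IgG, both were found in untreated I alone, with 6 and 9 alignments. The other 8 of the 15 regions with most alignments held 35 to 41 over the untreated Upf1 libraries, and were 488 to 777 nt wide. A region on chromosome 2 (172181635 to 172182204, minus strand) tied at 35 with the last 3 of these and fell outside the 15 by position alone. It had 0 with cycloheximide, against 17, 9 and 9 in Upf1 untreated A1, A2 and I.

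At the other end, 159 regions held exactly 8 untreated alignments. Just outside the choice lay 239 regions with 7 untreated alignments in at least 2 libraries and 0 with cycloheximide. A further 360 of the 937 present regions held exactly 1 alignment with cycloheximide. The median was 10 untreated alignments, with quartiles of 9 and 14. The narrowest region, on chromosome 11 (97554587 to 97554624, minus strand, 38 nt), held 0 with cycloheximide, against 2, 6 and 0 in Upf1 untreated A1, A2 and I. All 8 of those shared 1 5′ end. A minus-strand region of 41 nt on chromosome 19 (5038312 to 5038352) followed, with 9 untreated alignments. The next, of 43 nt and also on the minus strand, was found on chromosome 16 (13647861 to 13647903), with 10.

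The share of regions absent under cycloheximide was lower where the untreated count was higher. It was 60.4% (314 of 520, exact 95% binomial interval 56.0 to 64.6%) at 8 or 9 untreated alignments, 50% (156 of 312) at 12 to 15, 30% (60 of 200) at 21 to 30, and 4.11% (3 of 73, interval 0.856 to 11.5%) above 50. The intervals treat regions as independent, although neighbouring regions may share a transcript.

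**Figure D2:**
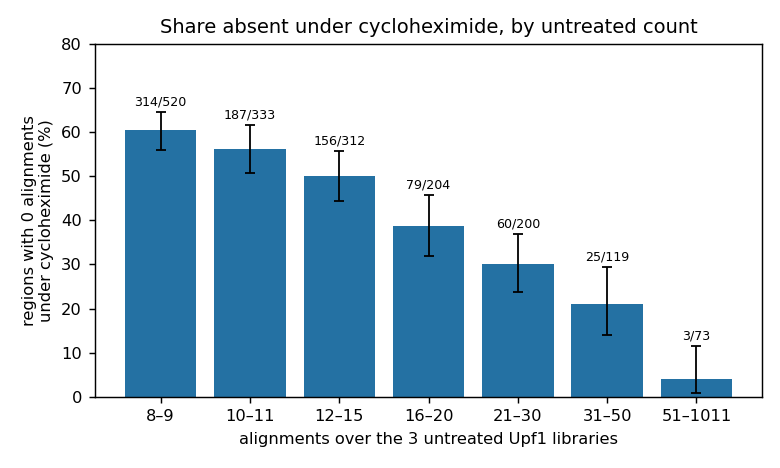
Bars give the percentage of regions with 0 alignments in both Upf1 cycloheximide libraries, by the number of alignments over the 3 untreated Upf1 libraries; whiskers are exact 95% binomial intervals and the numbers above are absent regions over all regions of that count. The share goes down in every step, with 60.4% at 8 to 9 and 4.11% above 50. This fall is not free of the rule, since 0 is harder to reach at high counts.

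The untreated libraries did not contribute alike. Of the 824 regions, 823 held an alignment in Upf1 untreated A1, 806 in I and 304 in A2, and 285 held one in all 3. The regions gathered 6799 of every 100000 unspliced alignments in Upf1 untreated A1, 3117 in A2 and 3903 in I. As a rate, 513 regions were highest in A1, 159 in A2 and 152 in I. Without A1 in the choice, 70 of the 373 regions that met the untreated demands were absent. Without I these were 185 of 665 and without A2 727 of 1549, against 824 of 1761 with all 3. With untreated A2 as the single untreated library, 47 regions held 8 or more alignments and 2 of these were absent with cycloheximide. At that same rate of 39.6 per 100000, 1 of 51 regions was absent from cycloheximide when untreated A1 alone was read, and 2 of 19 when untreated I alone was read. The share absent at that rate was 1.96% for A1, 4.26% for A2 and 10.5% for I.

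To see whether absence from one cycloheximide library went with absence from the other, the regions were chosen on one and read in the other. Of 1111 regions absent from Upf1 cycloheximide A1, 287 (25.8%) held an alignment in A2, against 415 of the 650 regions that were present in A1 (63.8%). The 1111 gathered 1243 of every 100000 alignments in A2 and the 650 gathered 4272. Their untreated totals were 7437 and 8559, so that the 650 had the higher untreated coverage per region. Read the other way, 235 of 1059 regions absent from A2 (22.2%) held an alignment in A1, against 415 of the 702 present in A2 (59.1%), at 1189 and 4833 of every 100000. Here too the untreated coverage per region was higher in the 702, with totals of 7198 and 8798. The shares are thus not at equal coverage and were not tested. Molecules found in several libraries were also kept in this reading. In A1, 21974 of 30186 unspliced alignments had a molecule found in that library alone, and in A2 22318 of 32747. How many molecules A1 shared with A2 was not read. The libraries may therefore not be independent, and the part of shared molecules in these shares was not tested.

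The control antibody recovered most of these regions. Of the 824 regions, 713 (86.5%, exact 95% binomial interval 84.0 to 88.8%) held at least 1 IgG alignment, against 905 of the 937 present regions (96.6%). In a cycloheximide IgG library 200 (24.3%) held one, against 655 present regions (69.9%). By library these were 0.850% and 29.8% in A1 and 24.2% and 65.5% in A2. In an untreated IgG library 700 (85.0%) held one. The median of untreated Upf1 alignments was 10 in absent and 14 in present regions, and the difference in these shares was not tested. The IgG libraries held 6798 (A1) and 18849 (A2) unspliced alignments with cycloheximide, together 25647. Without it they held 10212 (A1), 8121 (A2) and 47086 (I), together 65419. The shares and counts with and without cycloheximide are thus not at equal depth. The regions gathered 103 of every 100000 alignments in IgG cycloheximide A1 (7 alignments) and 1379 in A2 (260 alignments). In IgG untreated they gathered 1293 in A1, 2574 in A2 and 4063 in I (132, 209 and 1913 alignments). The groups overlapped, since IgG cycloheximide A2 lay above IgG untreated A1. IgG untreated A1 was a library of many copies, with 227205 lines for 10299 distinct alignments, against 23932 and 19711 in IgG cycloheximide A2. IgG cycloheximide averaged 741 ± 903 (SD, n = 2) and IgG untreated 2643 ± 1386 (SD, n = 3).

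In untreated cells the antibodies overlapped, with 3117 to 6799 of every 100000 alignments in Upf1 and 1293 to 4063 in IgG, although the choice had demanded a high count in Upf1 and not in IgG. Of the 824 regions, 653 held an alignment in IgG untreated I, and without that library 33.9% rather than 86.5% held any IgG alignment. The 111 regions with no IgG alignment were lightly covered, with a median of 9 and at most 17 untreated Upf1 alignments.

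**Figure D3:**
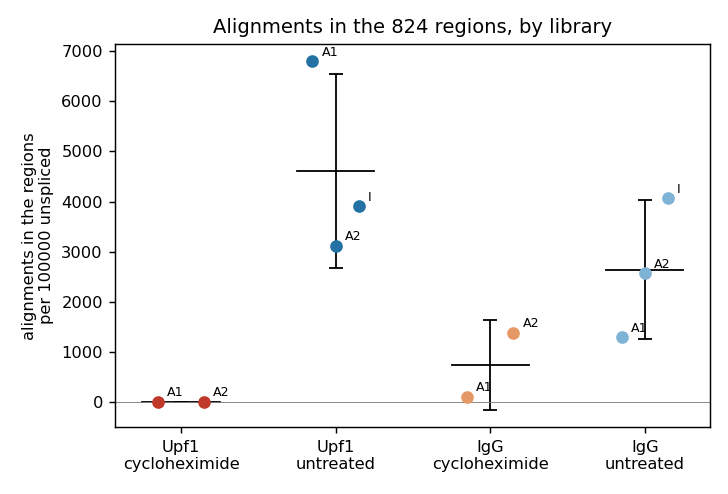
Points are libraries and give the alignments in the 824 regions per 100000 unspliced alignments; bars and whiskers are group means with SD. Both Upf1 cycloheximide libraries are at 0 by the choice of the regions, Upf1 untreated runs from 3117 to 6799, IgG cycloheximide holds 103 and 1379, and IgG untreated runs from 1293 to 4063.

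The IgG alignments were in part the same molecules as in other libraries. In IgG cycloheximide A2, 282 molecules lay in the regions, and 224 of them (79.4%) were also present in Upf1 untreated A2. In IgG untreated A2, 186 of 247 (75.3%) were present in Upf1 untreated A2. In IgG untreated I, 82 of 2151 (3.81%) were present in Upf1 untreated I. Molecules shared with the Upf1 cycloheximide libraries could not occur, since regions that held any were left out. The choice of the regions thus also bore on IgG cycloheximide and on IgG untreated A2. Over all regions, 44.2% and 35.8% of molecules in IgG cycloheximide A1 and A2 were present in Upf1 cycloheximide A2. For IgG untreated A1, A2 and I this was 1.05%, 38.3% and 0.054%. Among alignments whose molecule occurred in 1 library alone, the rates were 158 and 1074 of every 100000 in IgG cycloheximide A1 and A2, against 1257, 2685 and 4172 in IgG untreated A1, A2 and I. The groups did not overlap there, but the cycloheximide rates rested on 2 and 30 alignments.

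Among single regions, the most IgG alignments were found on chromosome 17 (39983476 to 39983649, plus strand, 174 nt). IgG cycloheximide A1 and A2 held 0 and 2, against 17, 2 and 25 in IgG untreated A1, A2 and I. In Upf1 it held 0 with cycloheximide, against 16, 5 and 3 in untreated A1, A2 and I. By limma-voom its log2 change in IgG was -2.96 ± 1.14 (SE, adjusted p = 0.458). A plus-strand region on chromosome 3 (5860740 to 5860829, 90 nt) had 0 in both IgG cycloheximide libraries, against 7, 0 and 12 in IgG untreated (log2 change -2.48 ± 0.99, SE, adjusted p = 0.458, limma). In untreated cells they held 24 and 15 Upf1 alignments, against 44 and 19 IgG alignments. Neither change passed the threshold, and over the 5 regions of lowest p in each direction the adjusted p ran from 0.458 to 0.868 (limma).

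Other regions held IgG alignments with cycloheximide. A minus-strand region on chromosome 15 (98664066 to 98664450) had 1 alignment in IgG cycloheximide A1 and 4 in A2, against 0, 2 and 1 in IgG untreated A1, A2 and I. In Upf1 this region held 0 with cycloheximide, against 10, 8 and 0 in untreated A1, A2 and I. A minus-strand region on chromosome 11 (6007478 to 6007995) had 1 and 3 in IgG cycloheximide, against 0, 0 and 3 in IgG untreated, and had the lowest p among the increases (log2 change 1.66 ± 1.06, SE, adjusted p = 0.868, limma). A plus-strand region on chromosome 5 (93601051 to 93601344) had 0 and 4, against 0, 4 and 7. No single region held more than 5 alignments over the IgG cycloheximide libraries.

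For the test in IgG, a region needed at least 10 alignments over all libraries and presence in at least 3. Of the 824 regions 674 passed this filter. The 539 regions found in exactly 2 Upf1 libraries could pass only through IgG, so counts over the 674 lend no support to a change in IgG. Of the 674, limma-voom called 0 in either direction with cycloheximide, while over all 2357 tested regions it called 0% higher and 0.0424% lower. Before adjustment, at p under 0.05, 3 of the 674 were lower and 0 were higher, beside 1.65% lower and 4.96% higher of all tested regions, and limma with a trended prior also called 0. On simulated data the fit called few of the changes put in, even large ones, so a count of 0 does not show that the regions did not change. The log2 change was below 0 in 591 of the 674 (87.7%) and in 61.4% of all tested regions, with medians of -0.38 and -0.22. Counting only molecules seen in a single library, these shares were 70.8% of 613 and 71.0% of all, with medians of -0.12 and -0.26.

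The same model was fitted to Upf1, whose counts had chosen the regions, so no calls are given for them. Over all 2357 tested regions it called 0.339% lower and 2.38% higher in Upf1 with cycloheximide, and without either Upf1 cycloheximide library 0 in both directions. Before adjustment, at p under 0.05, these were 8.32% and 8.1%. For Upf1 against IgG in untreated cells it called 0% in either direction by limma-voom and 0 with a trended prior, and before adjustment 1.7% were higher and 2.08% lower.

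Width followed the number of alignments. The regions had a median width of 248 nt, with quartiles of 176 and 338 nt, and present regions had 306 nt, with quartiles of 192 and 453 nt. With 8 or 9 untreated alignments the medians were 192.5 nt for absent and 194.5 nt for present regions, with 10 or 11 they were 243 and 218 nt, and with 12 to 15 they were 286 and 285.5 nt. With 16 to 20 they were 351 and 336 nt, with 21 to 30 they were 429 and 431.5 nt, with 31 to 50 they were 652 and 594.5 nt, and above 50 they were 961 and 918.5 nt. Absent regions had the higher median in 5 of these 7 groups, and the widths were not tested. Merging at gaps of up to 25 nt gave a median of 175 nt and at gaps of up to 100 nt 396 nt, so widths depend on the gap. At the base with most coverage lay a median of 42.9% of a region's untreated Upf1 alignments, against 37.5% in present regions, and in the group with 12 to 15 alignments these were 38.5% and 41.7%.

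Coverage ran along the regions and on 1 strand. In the 769 regions at least 100 nt wide, 3 equal parts, from 5′ to 3′, held 33.5%, 34.1% and 32.4% of the alignments in Upf1 untreated A1, 33.6%, 30.6% and 35.8% in A2, and 32.6%, 31.4% and 36% in I. On the opposite strand lay 10 untreated Upf1 alignments, beside 10642 on the strand of the regions. Plus and minus strand held 413 and 411 regions. By chromosome, 36.1% (chromosome 12) to 52.8% (chromosome 7) of the regions that met the untreated demands were absent, and chromosome 11 held most, with 106.

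The nearest spliced span gave the position within transcripts as far as these data allow. Spans of spliced alignments up to 20000 nt were merged, and 3693 resulted. Of the 824 regions, 150 (18.2%) lay within 2000 nt on the 3′ side of a span, 4 (0.485%) within 2000 nt on the 5′ side and 15 (1.82%) inside one, and 655 (79.5%) lay farther away. Of present regions, 178 of 937 (19.0%) lay on the 3′ side, 7 on the 5′ side and 45 (4.80%) inside. In both sets, regions beside a span lay more often on its 3′ side than on its 5′ side, and this difference was not tested. Those on the 3′ side lay at a median of 1032 nt from the span, against 688.5 nt for present regions. The spans came in large part from cycloheximide libraries, with 3079 spliced alignments in Upf1 and 1279 in IgG, against 2173 and 821 untreated. Because absent regions were chosen for 0 in Upf1 cycloheximide, these distances and the shares inside a span are not free of the choice. They were not tested. Of the 655 farther away, 466 (71.1%) also lay on the 3′ side of the nearest span.

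The share on the 3′ side was higher among strongly covered regions. Of the 97 regions with 20 or more untreated alignments, 29 (29.9%) lay within 2000 nt on the 3′ side and 1 lay inside a span. In bins of equal count the shares were 12.7% of absent and 13.6% of present regions at 8 or 9 alignments, 20.9% and 16.4% at 10 or 11, and 17.3% and 18.6% at 12 to 15. They were 19.0% and 18.4% at 16 to 20, 30% and 21.4% at 21 to 30, 40% and 23.4% at 31 to 50, and 33.3% and 31.4% above 50, where 3 regions were absent. The spans came from all libraries. With those of Upf1 untreated A1 and I alone, 11.2% rather than 18.2% of the regions lay on the 3′ side. Present regions were not read with these spans.

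The absent regions were not isolated from cycloheximide signal. A Upf1 cycloheximide alignment lay within 500 nt of 361 of the 824 regions (43.8%) and within 1000 nt of 469 (56.9%), against 468 (49.9%) and 599 (63.9%) of the 937 present regions. The median distance was 691 nt for absent and 506 nt for present regions. A further untreated Upf1 alignment lay within 500 nt of 784 absent regions (95.1%) and of 830 present regions (88.6%). The region on chromosome 15 at 99543128 to 99543822 had a cycloheximide alignment 52 nt from its edge, just past the merging gap. That on chromosome 11 at 120668396 to 120669116 had its nearest at 7804 nt.

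**Figure D4:**
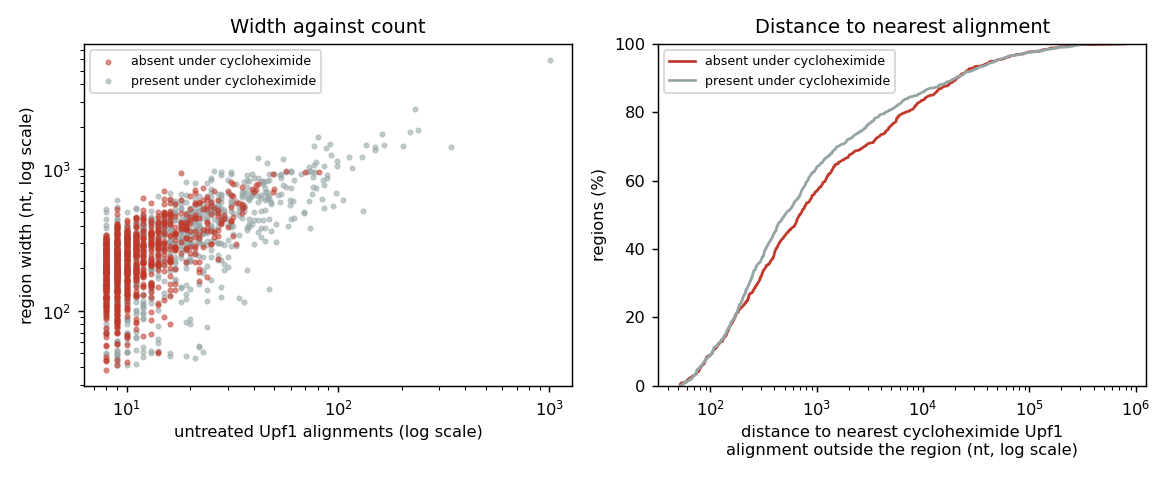
Left, region width in nt against the number of untreated Upf1 alignments, both on log scales; right, the cumulative percentage of regions by distance in nt (log scale) to the nearest Upf1 cycloheximide alignment outside the region. The points of absent and present regions overlap in width at equal counts, and 56.9% of absent and 63.9% of present regions have a cycloheximide alignment within 1000 nt.

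The flanks were not counted in the choice, although an alignment within the merging gap would have become part of the region. Alignments within 1000 nt of the 824 regions, outside any region that met the untreated demands, numbered 1163 and 1200 of every 100000 in Upf1 cycloheximide A1 and A2. In Upf1 untreated A1, A2 and I they numbered 3491, 1598 and 2537. Both cycloheximide libraries thus lay below all untreated ones. Since flanks may share a transcript with regions chosen for absence from the cycloheximide libraries, their rates are not free of the choice. Upf1 cycloheximide averaged 1181 ± 26.4 (SD, n = 2) and Upf1 untreated 2542 ± 947 (SD, n = 3). Beside the present regions, the rates were 1872 and 1573 in Upf1 cycloheximide, against 3294, 1489 and 2571 in Upf1 untreated, and the groups overlapped. That overlap came from untreated A2 alone. Whether the flanks of absent and present regions differed in their change was not tested.

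In IgG the flanks of the absent regions held 1633 and 1846 of every 100000 alignments in cycloheximide A1 and A2, against 656, 1983 and 3347 in untreated A1, A2 and I. Both IgG cycloheximide libraries lay within the range of the untreated ones, of which A1 alone lay below them. Counting only molecules seen in a single library, the Upf1 flanks held 1010 and 932 with cycloheximide, against 3497, 1333 and 2550 without, and again did not overlap. The flank rate in Upf1 untreated A2 stood nearest to cycloheximide in each setting. Untreated A2 was the only untreated Upf1 library with 38 nt reads, and also the one with fewest unspliced alignments (20209). What part either had in the rate was not tested.

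**Figure D5:**
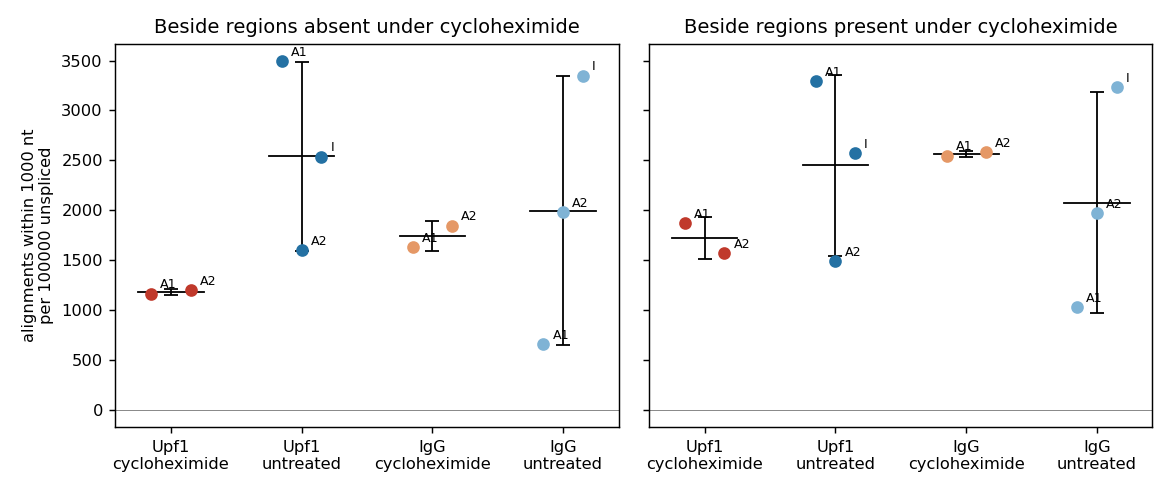
Points are libraries and give the alignments within 1000 nt of the regions, per 100000 unspliced alignments, beside the 824 absent regions (left) and the 937 present regions (right); bars and whiskers are group means with SD. Beside absent regions Upf1 cycloheximide (1163 and 1200) lies below Upf1 untreated (1598 to 3491), while beside present regions they overlap through untreated A2 alone. Neither set of flanks is free of the choice of its regions.

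Some regions adjoined one another. Joined at distances up to 2000 nt on the same strand, the 824 regions formed 673 loci, of which 118 held more than 1 and took up 269 regions. The most in 1 locus was 4, reached on chromosomes 1, 3, 6, 11 and 15. On chromosome 11 these 4 spanned 60965626 to 60967974 on the minus strand and held 77 untreated Upf1 and 24 IgG alignments together. On chromosome 15 they spanned 25741989 to 25743269 on the plus strand, with 58 and 7. Regions of 1 locus may come from 1 transcript and are not independent.

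Spliced alignments had no part in the choice. Counted where an end fell inside a region, there were 5 and 6 in Upf1 cycloheximide A1 and A2, against 11, 6 and 13 in Upf1 untreated A1, A2 and I. With IgG there were 1 (cycloheximide A1) and 4 (cycloheximide A2), against 0, 2 and 6 in IgG untreated A1, A2 and I. These are counts and not rates, and they were not tested. In all, Upf1 cycloheximide A1 and A2 held 1606 and 1473 spliced alignments, against 1130, 240 and 803 in Upf1 untreated A1, A2 and I. Upf1 spliced ends touched 2 regions in Upf1 cycloheximide and 10 in Upf1 untreated. So 2 of the 824 regions were reached by Upf1 with cycloheximide in spliced form, although they held no unspliced alignment there.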

How the data were processed

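The deposited files list alignments on mm9, 1 per line, without counts or coverage. Bowtie 0.12.6, TopHat 1.4.0 and Cufflinks 1.3.0 appear in the submitters' processing notes, and which of them made the alignments is not given in the sources used here. The deposited score is constant at 255 and was not used. The deposited name of each alignment joins a serial, its copies and 2 letters, which per the labels come from random nucleotides of the 5′ adapter. The Upf1 files are named as filtered on these letters and the IgG files are not, and whether IgG was filtered is not given in the sources used here.

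Distinct alignments (chromosome, start, end and strand) were tallied per library in Python 3.11.15 with pandas 2.3.3, and rates are per 100000 unspliced alignments. Over regions with at least 10 alignments in at least 3 libraries, limma-voom (limma 3.58.1, R 4.3.3) was fitted to the 4 groups, with trimmed mean of M values scaling (trims of 30% and 5%, against the library with most alignments) and Benjamini-Hochberg adjustment at 0.05. The method was tested on simulated data. No count test was used, since the files list alignments and not counts. The text names the 15 regions with most untreated Upf1 alignments, the 5 with most IgG alignments in each condition, in each direction in IgG the 5 of lowest p, and the 3 widest and narrowest, giving the leading ones in full and the others as ranges. The regions and the lists were chosen with earlier results of these data known. The flanks, the choice on 1 library and the reading in another were added after the data had been seen. The mRNA-seq and ribosome footprinting samples were not analysed here.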

Additional observations from a re-analysis of the deposited data

How the results depend on the processing

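Of the regions that met the untreated demands, 824 of 1761 were absent. This became 323 of 908 with at least 12 and 167 of 596 with at least 16 untreated alignments. It was 285 of 881 where all 3 untreated libraries were asked for, 1293 of 2463 with distinct molecules and 1945 of 3373 with every line counted. With 38 nt reads alone it was 2 of 47, which also left untreated A2 by itself and dropped the demand for 2 libraries. The number was 854 of 1409 with alignments of 30 nt or longer and 984 of 1671 without shared molecules. Leaving out 1 library gave from 70 of 373 to 1111 of 1761. In IgG, the 0 regions called higher became 7 with a filter of 30 alignments, and the 1 called lower became 0 with no filter, a trended prior or no shared molecules, and 0 to 1 without 1 library. In Upf1, the 56 called higher with cycloheximide became 0 with no filter, 13 with a filter of 30, 93 with a trended prior, 0 with distinct molecules and 10 without shared ones, and 0 to 113 without 1 library. The 8 called lower became 43 with library totals, 0 with no filter, 1 with a filter of 30, 3 with a trended prior, 0 with distinct molecules, 3 without shared ones and 15 with another library as the base of the scaling, and 0 to 65 without 1 library. For Upf1 against IgG, 0 were called higher in each setting, and the 0 called lower became 8 with library totals, 2 with a filter of 30 and 0 to 28 without 1 library. The share with any IgG alignment was 81.2% without shared molecules and 33.9% to 86.5% without 1 library. The median width was 175 nt and 396 nt with gaps of 25 and 100 nt. The share on the 3′ side was 8.86% within 1000 nt, 30.7% within 5000 nt and 11.2% where spans came from Upf1 untreated A1 and I alone. The causes were not tested. Of the values for the comparisons above, 95 stayed within the limits set and 56 did not, and of those for calls among the 824 regions and for the flanks 110 did and 20 did not.

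With a replicate block the calls with cycloheximide were 105 higher and 15 lower in Upf1 and 0 lower in IgG. Same-numbered libraries deviated together in some pairs and not in others (correlations of 0.259 and 0.391 in IgG, 0.027 and 0.03 in Upf1, and -0.17, 0.423 and 0.342 between antibodies). The main fit did not take the numbers as pairs, and its values in IgG depend on that. Depth limited the regions with few untreated alignments, since 8 come to 2.45 at the cycloheximide depth. The flank windows, the length limit and the other base of the scaling were added after the data had been seen.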
